A study of Mus musculus with 8 samples.

Results

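The 10 loci examined are imprinted loci of the mouse, named as maternally methylated: Peg3, Snrpn, Kcnq1ot1, Mest, Peg10, Plagl1, Nnat, Impact, Grb10 and Airn. Each locus was the gene body in GENCODE M21 with 10 kb to either side, so the 10 loci were 10 of 51229 autosomal genes. Within them 7558 of 8011 reference CpGs had 5 or more reads in every file. Methylation came from whole-genome bisulfite sequencing of spleen lymphocytes of C57BL/6J mice aged 6 to 8 weeks, with cells of 4 to 5 mice pooled per biological replicate in the study's methods. The groups were CD43- B cells of females, CD43- B cells of males, CD4+CD62L+ T cells of females and CD4+CD62L+ T cells of males, all from untreated mice of 1 inbred strain with no mutant allele named. Each group had 2 entries but 1 file, and whether that file merged both was not stated, so each group gave 1 measurement and had no replicate. The mean depth was 14.6 reads per autosomal CpG in female B, 17.7 in female T, 16.1 in male B and 17.3 in male T. The B cell marker promoters Cd79a, Cd79b, Ms4a1 and Blk were less methylated in both B files than in both T files, and the T cell marker promoters Cd3d, Cd3e, Cd3g, Lck and Cd4 were less methylated in both T files.

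At an imprinted gene 1 parental copy is silent. The choice is carried by a germline differentially methylated region, a CpG-rich stretch that is methylated in the egg or in the sperm and keeps that state on 1 parental copy in body cells. A maternally methylated region usually lies at the start of the gene that the father's copy expresses, and a cell with 1 methylated and 1 unmethylated copy gives a methylation level near 50%. ZFP57 is a zinc finger protein known to protect such regions after fertilization, and it binds the hexamer TGCCGC when its CpG is methylated. Reads were not assigned to a parent, so the parental origin of the methylated copy was not measured. Bisulfite reads 5-methylcytosine and 5-hydroxymethylcytosine alike.

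A run was defined as a chain of CpGs whose level, smoothed over 7 CpGs, lay between 30% and 70% in every file, with no gap over 500 bp and at least 10 such CpGs. CpGs outside the band were bridged where the gap allowed, and without bridging the median width of the main runs was 627.5 bp in place of 2143 bp. The run with most CpGs in the band was taken as the main run of a locus. All 10 loci held a run, against 14.4% of all autosomal genes with the same flanks. Those genes were of every annotated type and were not matched to the 10 loci for length or CpG count. The main runs held 41 to 136 CpGs in the band, with a median of 89.5, against a median of 12 over all 7364 autosomal runs. The main run was by this choice the largest of its locus, while all runs included small ones. With 41 CpGs, the smallest main run, as the limit, 80 autosomal runs were as large, among them by construction the 10 main runs, and 0.416% of genes held such a run within 10 kb. By that count Mest ranked 5, Peg10 ranked 6, Peg3 ranked 7 and Grb10 ranked 8 of all autosomal runs.

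Copies of the ZFP57 hexamer lay inside every main run. Stretches of 80 bases are given for 6 runs, because they hold the densest clusters of the hexamer in those runs outside annotated UTRs, read 5′ to 3′ from the plus strand of GRCm38. Capitals mark TGCCGC or its reverse complement GCGGCA. The Peg3 stretch at chr7:6729668-6729747 lay in an intron, that of Snrpn at chr7:60004347-60004426 in an intron, that of Mest at chr6:30738349-30738428 in an intron and that of Plagl1 at chr10:13091049-13091128 in an intron. The Kcnq1ot1 stretch at chr7:143295668-143295747 lay in the exon of this non-coding RNA. The Airn stretch at chr17:12741748-12741827 lay in an intron, within the run at Airn's own start.
Peg3: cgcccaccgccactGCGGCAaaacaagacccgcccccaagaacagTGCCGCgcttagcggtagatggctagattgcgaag
Snrpn: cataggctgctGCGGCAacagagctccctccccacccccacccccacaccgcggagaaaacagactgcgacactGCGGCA
Mest: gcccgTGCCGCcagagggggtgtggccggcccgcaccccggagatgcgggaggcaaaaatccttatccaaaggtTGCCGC
Plagl1: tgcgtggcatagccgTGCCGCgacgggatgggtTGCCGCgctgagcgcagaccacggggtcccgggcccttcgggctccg
Kcnq1ot1: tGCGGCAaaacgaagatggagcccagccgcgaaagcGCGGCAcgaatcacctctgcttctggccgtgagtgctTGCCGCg
Airn: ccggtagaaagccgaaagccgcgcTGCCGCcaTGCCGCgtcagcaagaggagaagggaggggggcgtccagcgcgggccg

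Over the covered CpGs of these stretches the mean level of the 4 files was 39.5% at Peg3, 52.0% at Snrpn, 41.2% at Mest, 49.3% at Plagl1, 41.5% at Kcnq1ot1 and 46.6% at Airn. Single files varied more over so short a stretch, from 19.8% in male B to 53.0% in female B at Peg3. The stretches held 5 to 12 CpGs each in the reference.

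Kcnq1ot1 is a long RNA transcribed antisense within Kcnq1 and known to silence neighbouring genes on the paternal copy. Its main run, chr7:143294410-143296905, was 2496 bp wide with 80 of 106 covered CpGs in the band. The annotated start of Kcnq1ot1 lay inside, 356 bp from the right edge. Its level was 41.2% in female B, 47.2% in female T, 42.5% in male B and 43.3% in male T. Both B files lay below both T files, by 6.06 points in females and 0.78 points in males (adjusted p = 0.311).

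Airn is the antisense RNA that silences Igf2r, the receptor gene for insulin-like growth factor 2. Its locus held 3 runs, and the run with most CpGs in the band lay inside Airn but away from Airn's own transcript starts. That main run, chr17:12768770-12770009, was 1240 bp wide, had 41 of 113 covered CpGs in the band and held the start of Igf2r, a promoter known as methylated on the copy from the father. Its level was 45.3% in female B, 33.9% in female T, 40.6% in male B and 39.0% in male T, so the female T file stood lowest. The run at Airn's own start, chr17:12741330-12742702, was 1373 bp wide, with 36 of 67 covered CpGs in the band and 4 Airn transcript starts. Here 71.3% of reference CpGs were covered, the lowest share among the runs of these loci. Its level was 41.3% in female B, 43.4% in female T, 40.9% in male B and 44.0% in male T. Another run, chr17:12780164-12781484, lay in an Airn intron with 13 CpGs in the band and 55.3% mean methylation.

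Peg3 and Plagl1 encode zinc finger proteins that act as transcription regulators. The Peg3 run, chr7:6727669-6732373, was 4705 bp wide with 123 of 147 covered CpGs in the band and held the starts of Peg3 and of its divergent neighbour Usp29. Its level was 48.8% in female B, 50.1% in female T, 47.5% in male B and 48.5% in male T. All 4 Peg3 values lay within 2.55 points. The Plagl1 main run, chr10:13090411-13092029, was 1619 bp wide, with 71 of 98 covered CpGs in the band and 22 Plagl1 transcript starts. Its level was 59.1% in female B, 49.5% in female T, 47.2% in male B and 45.2% in male T. The female B file stood apart there, and the 13.9 points between the highest and the lowest file were the widest range among the main runs. A further Plagl1 run of 18 CpGs in the band, chr10:13060976-13061222, lay in an intron near the annotated gene start and was lower in both B files (47.4% and 47.7%) than in both T files (65.01% and 54.0%, adjusted p = 0.113).

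Peg10, derived from a retrotransposon and needed in the placenta, shares its start region with Sgce. The run, chr6:4746099-4749481, was 3383 bp wide, with 135 of 173 covered CpGs in the band and starts of both genes inside. Its level was 52.2% in female B, 48.0% in female T, 48.6% in male B and 46.0% in male T. Both B files lay above both T files there, by 4.25 points in females and 2.63 points in males (adjusted p = 0.136). With unbroken runs, where the run of the locus was located anew, the mean difference was -4.76 points.

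Grb10 encodes an adaptor that restrains insulin and growth factor receptor signalling, and Impact encodes a regulator of translation. The Grb10 main run, chr11:12025460-12026984, was 1525 bp wide, with 121 of 153 covered CpGs in the band and 2 of the gene's transcript starts. Its level was 45.8% in female B, 47.6% in female T, 48.8% in male B and 46.9% in male T, a range of 3.01 points. The annotated 5′-most start of Grb10 lay outside this run. It lay inside a further run, chr11:12038446-12039297, 237 bp from that run's left edge. A stretch with little methylation (6.99% to 8.67% in the 4 files over the 1 kb left of this run) separated it from another, chr11:12035345-12035917, and both had 14 CpGs in the band. The mean level was 55.8% in the run at the annotated start and 54.4% in the other, with B minus T at 0.37 and -7.40 points. Another run, chr11:11960517-11961293, in an intron, had 10 CpGs in the band, the fewest the definition admits. It was lower in both B files (43.5% and 38.1%) than in both T files (55.7% and 55.9%, adjusted p = 0.0986). The mean difference of -15.0 points was the largest among the runs of these loci, and the run was not called. The Impact run, chr18:12972131-12974566, was 2436 bp wide with 99 of 142 covered CpGs in the band and 3 Impact transcript starts. Its level was 44.0% in female B, 36.2% in female T, 42.3% in male B and 43.5% in male T. The female T file was again the lowest, and the other three lay within a narrow span.

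Snrpn encodes a component of the splicing machinery, Mest an enzyme of the hydrolase fold family and Nnat a small membrane proteolipid. The Snrpn run, chr7:60004102-60005296, was the narrowest main run at 1195 bp in the main settings and had 41 of 49 covered CpGs in the band. That rank depended on the settings. Over the alternatives the width ran from 550 to 1254 bp at Snrpn and from 311 to 1469 bp at the main run of the Airn locus. The annotated 5′-most start of Snrpn lay outside its run, and 4 of the 10 main runs held that start of their own gene. The Snrpn run held 1 Snrpn transcript start and a start of Snurf, genes that share a transcript. Its level was 46.6% in female B, 48.8% in female T, 54.1% in male B and 45.8% in male T, with the male B file highest. Mest had the widest main run in the main settings, a rank that also depended on them. Over the alternatives the width ran from 534 to 5354 bp at Mest and from 1110 to 5250 bp at Peg3. The Mest run, chr6:30734618-30739662, was 5045 bp wide, with 136 of 182 covered CpGs in the band and 3 Mest transcript starts. Its level was 46.5% in female B, 47.3% in female T, 47.9% in male B and 46.4% in male T, a range of 1.54 points and the smallest of the main runs. The Nnat run, chr2:157559894-157561743, was 1850 bp wide, lay within Blcap and had 44 of 92 covered CpGs in the band, with 10 Nnat transcript starts. Its level was 51.8% in female B, 42.5% in female T, 47.8% in male B and 48.5% in male T.

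**Figure D1:**
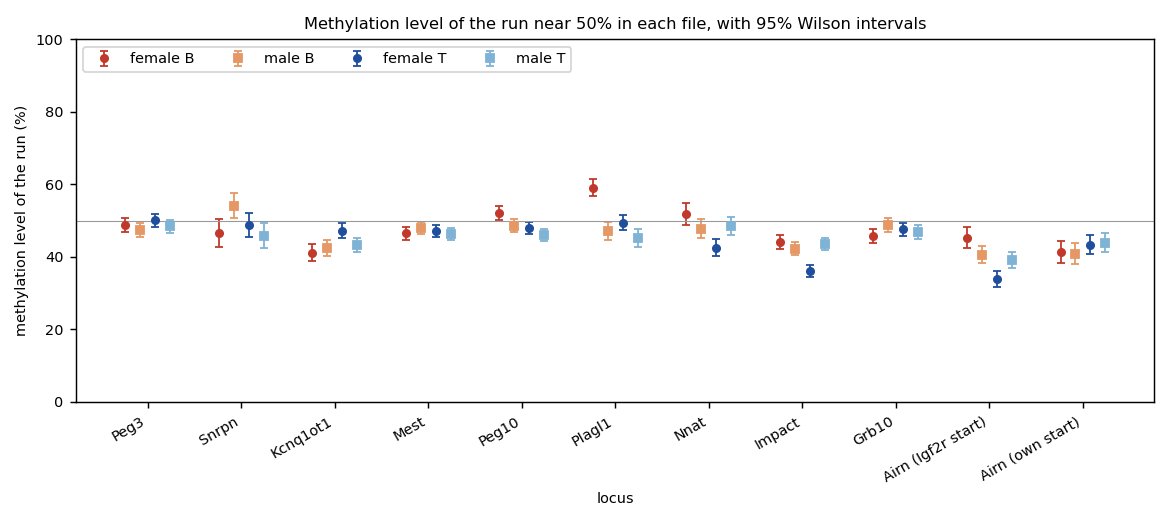
Methylation level (%) of the main run of each locus, and of the run at Airn's own start, in each of the 4 deposited files, with 95% Wilson intervals for counting error. Of the 40 values at main runs, 37 lay between 40% and 60%, and the lowest and highest were 33.9% (female T, run at the Igf2r start) and 59.1% (female B, Plagl1).

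The mean level of the 4 files at the main runs ranged from 39.7% at the Igf2r start to 50.2% at Plagl1, with a median of 47.5%. Over all autosomal runs the median was 48.8%. These levels are a description, since the runs were located by the smoothed level. They rested on all covered CpGs of a run, of which 891 of 1255 lay in the band over the 10 main runs. Each value rested on 674 to 3611 CpG reads, where a read counts once for each CpG it covers. The widest 95% Wilson interval of a file was between 3.67 points (Mest) and 7.51 points (Snrpn) from end to end. Calls of 1 read at neighbouring CpGs are not independent, and the intervals cover counting error only. Left over after cell type and sex, the variance between files at the main runs averaged 8.75 times the binomial value, against 1.86 over all runs and 5.95 over the 80 large ones. It was uneven, with 26.4 at Impact and 0.0186 at Peg3.

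Levels were not even inside a run. In bins of 250 bp with at least 3 CpGs, 79 of 93 bins (84.9%) of the main runs had a mean level between 40% and 60%. Nnat varied most, from 35.8% in the bin 500 bp from its left edge to 64.5% in the bin at 1000 bp. Impact ranged from 33.6% to 58.5% and Kcnq1ot1 from 35.4% to 58.6%. Snrpn kept all of its 5 bins, Peg10 all of its 14 and Grb10 all of its 6 between 40% and 60%. At Peg3 14 of 16 bins and at Mest 16 of 17 bins lay there.

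**Figure D2:**
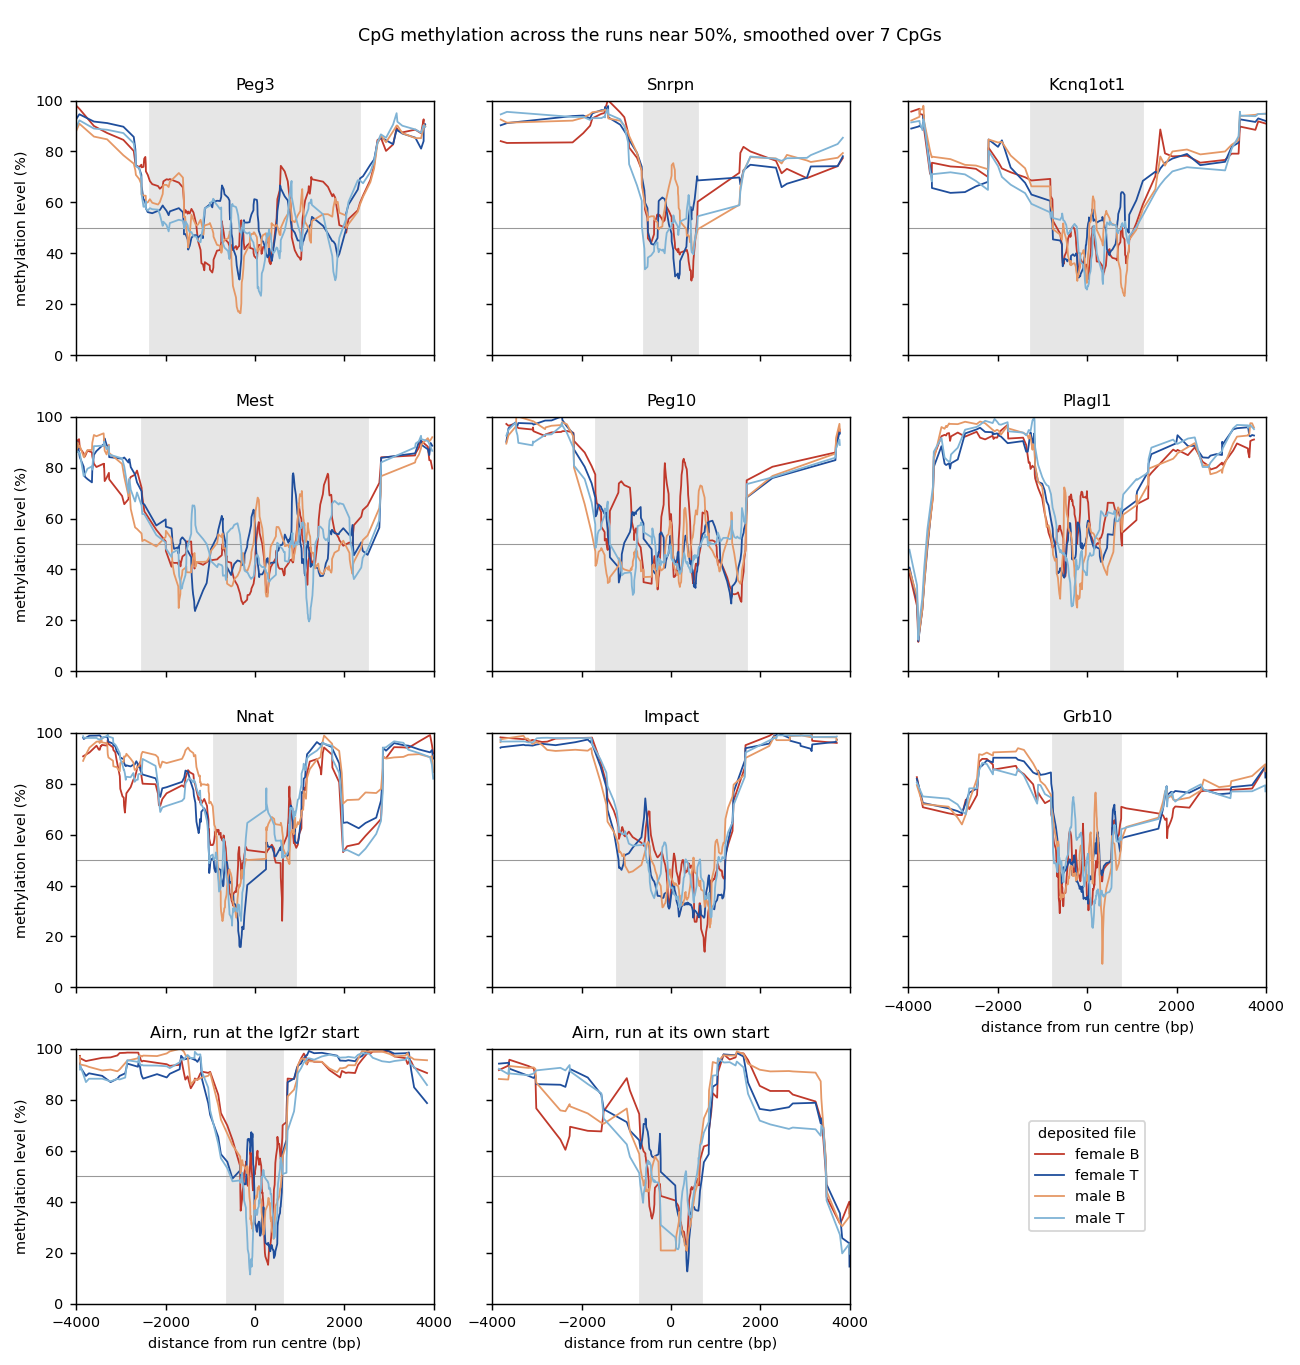
Methylation level (%) smoothed over 7 CpGs against distance from the run centre (bp), with 1 line per deposited file and the run shaded. In each panel the 4 lines drop from the methylated flanks into the shaded run, cross one another within it and rise again beyond it. The median level of the 20 flanks of 1 kb was 83.0%.

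The level outside the edges was partly fixed by where a run ends, so the flanks are a description. The 20 flanks of 1 kb beside the main runs had mean levels between 64.8% and 89.8%, and 17 of 20 were above 70%. The right flank of Grb10 was the lowest and the left flank of Snrpn was the highest. The right flanks of Snrpn and Peg10 held 2 covered CpGs each and that of Mest held 3, so those levels are imprecise.

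The edges were then located in 1 file at a time. At Snrpn the width was 1252 bp in female B, 1195 bp in female T, 1252 bp in male B and 1360 bp in male T, and the right edge was the same CpG in every file. At Kcnq1ot1 it was 2638 bp in female B, 2638 bp in female T, 2775 bp in male B and 4233 bp in male T, the largest spread between files (SD 777 bp, n = 4). At Peg3 it was 4937 bp in female B, 4891 bp in female T, 5176 bp in male B and 4964 bp in male T. The B and T values overlapped at these loci and at 8 of 10 loci in all, so they did not at 2 of 10, against 33.9% of all runs.

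At the other 2 they did not. The Plagl1 run was 2374 bp in female B, 2016 bp in female T, 2073 bp in male B and 1619 bp in male T, so it was wider in both B files. The run at the Igf2r start was 1240 bp in female B, 1529 bp in female T, 1328 bp in male B and 1555 bp in male T, so it was narrower in both B files. Its left edge lay 203 bp further out in both T files. With the run located in both B files and again in both T files, 8 of 20 edges lay within 100 bp of each other, 3 of 20 were the same CpG, and the largest shift was 311 bp, at the right edge of Plagl1. No test was made of widths, since each group had 1 value.

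**Figure D3:**
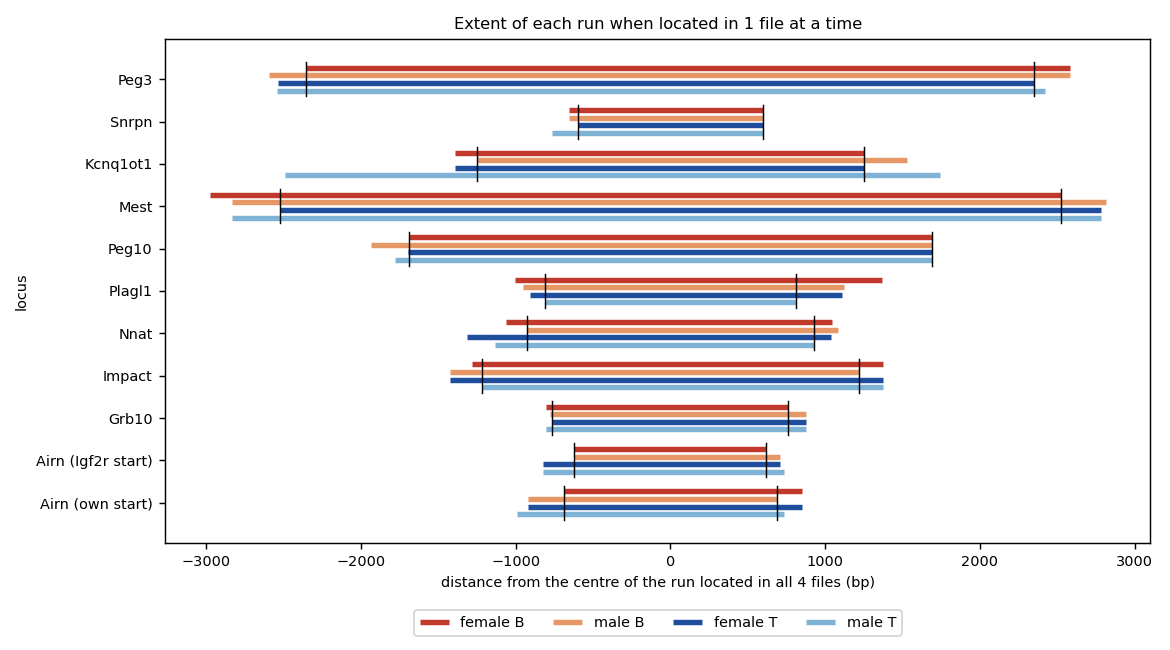
Extent of each run when located in 1 file at a time, as distance from the centre of the run located in all 4 files (bp), with 1 bar per deposited file and black ticks at the edges found in all 4 files together. At Kcnq1ot1 the male T bar, 4233 bp wide, reaches beyond the others on both sides, and at Plagl1 the right ends spread over 558 bp.

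B and T cells were compared at the main runs with a quasi-binomial logistic fit that had cell type and sex as terms, over all 7364 autosomal runs. Runs with an adjusted p below 0.05 that also differed by 10 points or more were called. Fisher's exact test, which had to pass in females and in males, called 0 of the 10 main runs, and its share of all runs is not given. The fit called 0 of the 10, against 2.44% of all runs. At an unadjusted p under 0.05 there were 3 of 10 (Peg10, Plagl1 and the run at the Igf2r start), against 17.6% of all runs. The lowest adjusted p was 0.133, at Plagl1, where B files were higher by 9.63 points in the females and by 2.00 points in the males. With a file left out the sex term left the fit too, so 1 file of a cell type was set against files of both sexes. The female B file of Plagl1 then lay 11.8 points above the mean of both T files (adjusted p = 0.00016, called), and the male B file lay -0.13 points from it. Impact without the male T file had a lower adjusted p of 0.000139 but a difference of 7.01 points, and was not called. In 4 of 11 other settings that kept the 4 files, 1 to 3 main runs (among Plagl1, Peg10, Peg3 and the Igf2r start) had an adjusted p under 0.05, with differences of at most 7.12 points, and none was called. The share of all runs in those settings is not given. At the Igf2r start B files were higher by 11.4 points in the females and by 1.61 in the males (adjusted p = 0.201). Other settings located the main run of the Airn locus anew, which need not be this run or all of it. The difference was then -1.62 points with 10 reads per CpG, -7.66 with a band of 35 to 65% and -9.25 with unbroken runs. The direction in females and in males was opposite at Snrpn, Mest, Nnat, Impact and Grb10, and the share of all runs is not given.

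The median absolute difference between B and T files was 3.38 points over the main runs and 3.40 points over all autosomal runs. The main runs were larger, with a median of 89.5 CpGs in the band against 12. Their counting error was therefore smaller, and the medians are not matched for size. The band kept runs where any file went far from 50% out of the list, so a small difference was partly built in. The B files and the T files did not overlap at 3 of the 10 main runs (Kcnq1ot1, Peg10 and the Igf2r start), against 45.9% of all runs. At the Peg10 and Airn loci the sign turned in settings that located the run anew. At the run at Airn's own start both B files lay below both T files, by 2.08 points in females and 3.06 points in males (adjusted p = 0.467).

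Female and male files were compared in the same fit. Fisher's exact test, which had to pass in B and in T cells, called 0 of the 10 main runs, and its share of all runs is not given. The fit called 0 of the 10, against 0.0136% of all runs, and 2 of 10 had an unadjusted p under 0.05, against 5.32%. The median absolute difference was 1.38 points over the main runs and 2.47 points over all runs, which were mostly smaller and had more counting error. The largest was at Plagl1, with 54.3% in females and 46.2% in males on average over the cell types (adjusted p = 0.70).

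Windows of 1 kb with at least 3 covered CpGs were tested over the whole of each locus, since windows were laid without regard to level. A called window had an adjusted p below 0.05 and differed by 20 points or more. Of 731 windows in the loci 12 were called between B and T cells, against 2.08% of all windows tested, and Fisher's exact test called 7. The higher level was in B cells at 7 windows, against 1.17% of all windows, and in T cells at 5, against 0.914%. The 35 windows that overlap a main run were tied to runs located by level, although they also held bridged and flanking CpGs, so their values are a description. None of them was called, which that choice partly fixed, and their largest difference was 12.97 points. Their median absolute difference was 5.46 points, against 2.42 in the other 696 windows. In those 35 windows 18 had an unadjusted p under 0.05 (51.4%), against 13.5% of the other 696 windows and 12.6% of all windows, and their dispersion between files averaged 5.00, against the 1.29 that the fit gave to every window, so those p are too small. Between female and male files the fit called 0 of 731 windows, against 0.00108% of autosomal windows. Fisher's exact test also called 0, against 11 autosomal windows. In the fit 42 of the 731 had an unadjusted p under 0.05, against 4.88% of all autosomal windows. Of these, 9 were among the 35 windows that overlap a main run and 33 among the other 696. The p of those 35 were again too small, since the dispersion of 1.29 was used here too.

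The Impact locus held the largest of these differences, and 2 called windows of opposite direction among 55 tested, against 2.08% of all windows. In the window chr18:12982001-12983000, which overlaps an exon of Impact 7435 bp beyond the main run, the level was 91.4% in female B, 27.1% in female T, 92.3% in male B and 31.3% in male T. The window held 5 CpGs and 52 to 70 reads per file. B files were higher by 64.3 points in females and 61.1 points in males (adjusted p = 3.64e-19), and the groups were far apart, while the main run of the same gene was not called. This window was called under all 8 alternatives in which it was tested, of which the lower threshold of 10 points could not lose a call. The other, chr18:12989001-12990000, over an exon of Impact, had the smaller differences and is given after its values were seen. Its level was 43.4% in female B, 78.7% in female T, 62.7% in male B and 73.2% in male T (adjusted p = 1.99e-09), lower in both B files, with B minus T at -35.3 points in the females and -10.5 points in the males. The dispersion between files at this window was 15.2, against the 1.29 that the fit used, so this p is too small.

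At Airn 6 of 135 windows were called, against 2.08% of all windows. That was the most of any of the 10 loci, and Airn also had the most windows tested. In chr17:12759001-12760000, in an intron of Airn and of Igf2r with 16 CpGs, the level was 92.6% in female B, 65.8% in female T, 90.8% in male B and 64.5% in male T (adjusted p = 4.83e-19). In chr17:12746001-12747000, also in introns of both, it was 57.0% in female B, 31.5% in female T, 58.4% in male B and 29.8% in male T (adjusted p = 3.01e-05). These 2 windows were higher in both B files. The window chr17:12739001-12740000, over an exon of Igf2r upstream of Airn's start, went the other way. Its level was 50% in female B, 89.8% in female T, 66.3% in male B and 94.0% in male T (adjusted p = 1.25e-07). At chr17:12773001-12774000 B files were higher by 36.3 points in the females and 16.6 in the males, and at chr17:12782001-12783000 by 26.5 points in the females and 19.6 in the males. The latter was called with an adjusted p of 0.0442, and the call was lost in 5 of 8 alternatives, among them without the female B file (24.3 points), the female T file (18.4 points) or the male B file (21.9 points). At chr17:12773001-12774000 it was lost without the female T file, at 16.4 points, and by Fisher's exact test (adjusted p = 0.123). The remaining called window, chr17:12744001-12745000, ranked below the named ones and is given after its values were seen. B files were higher there by 15.6 points in the females and 30.1 in the males.

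Of 114 windows tested at Grb10 2 were called, both in introns, against 2.08% of all windows. In chr11:11953001-11954000 the level was 89.6% in female B, 59.9% in female T, 92.1% in male B and 68.3% in male T (adjusted p = 4.48e-18), so it was higher in both B files. In chr11:11960001-11961000, which overlaps the intronic run of the locus, it was 55.2% in female B, 75% in female T, 50.7% in male B and 71.9% in male T (adjusted p = 0.000287), lower in both B files. A Kcnq1ot1 window, chr7:143271001-143272000, over the exon of that RNA, was at 78.8% in female B, 98.2% in female T, 70.8% in male B and 95.4% in male T (adjusted p = 4.95e-07). A Snrpn window of 3 CpGs, chr7:60094001-60095000, was at 67.6% in female B, 95.7% in female T, 72.4% in male B and 92.9% in male T (adjusted p = 0.00656). The calls at the second Grb10 window (-18.3 points) and at Kcnq1ot1 (-18.0 points) were lost without the male B file, the former also without the female T file (-18.9 points). The call at Snrpn was lost without the female B file (-21.8 points) or the female T file (-22.9 points), by Fisher's exact test (adjusted p = 0.395) and with a dispersion prior from all windows (adjusted p = 0.0514). Peg3, Mest, Peg10, Plagl1 and Nnat held no called window in 45, 39, 28, 89 and 23 windows tested, where 2.08% of all windows were called. The called windows lay between 2992 and 88705 bp from the main run of their locus.

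**Figure D4:**
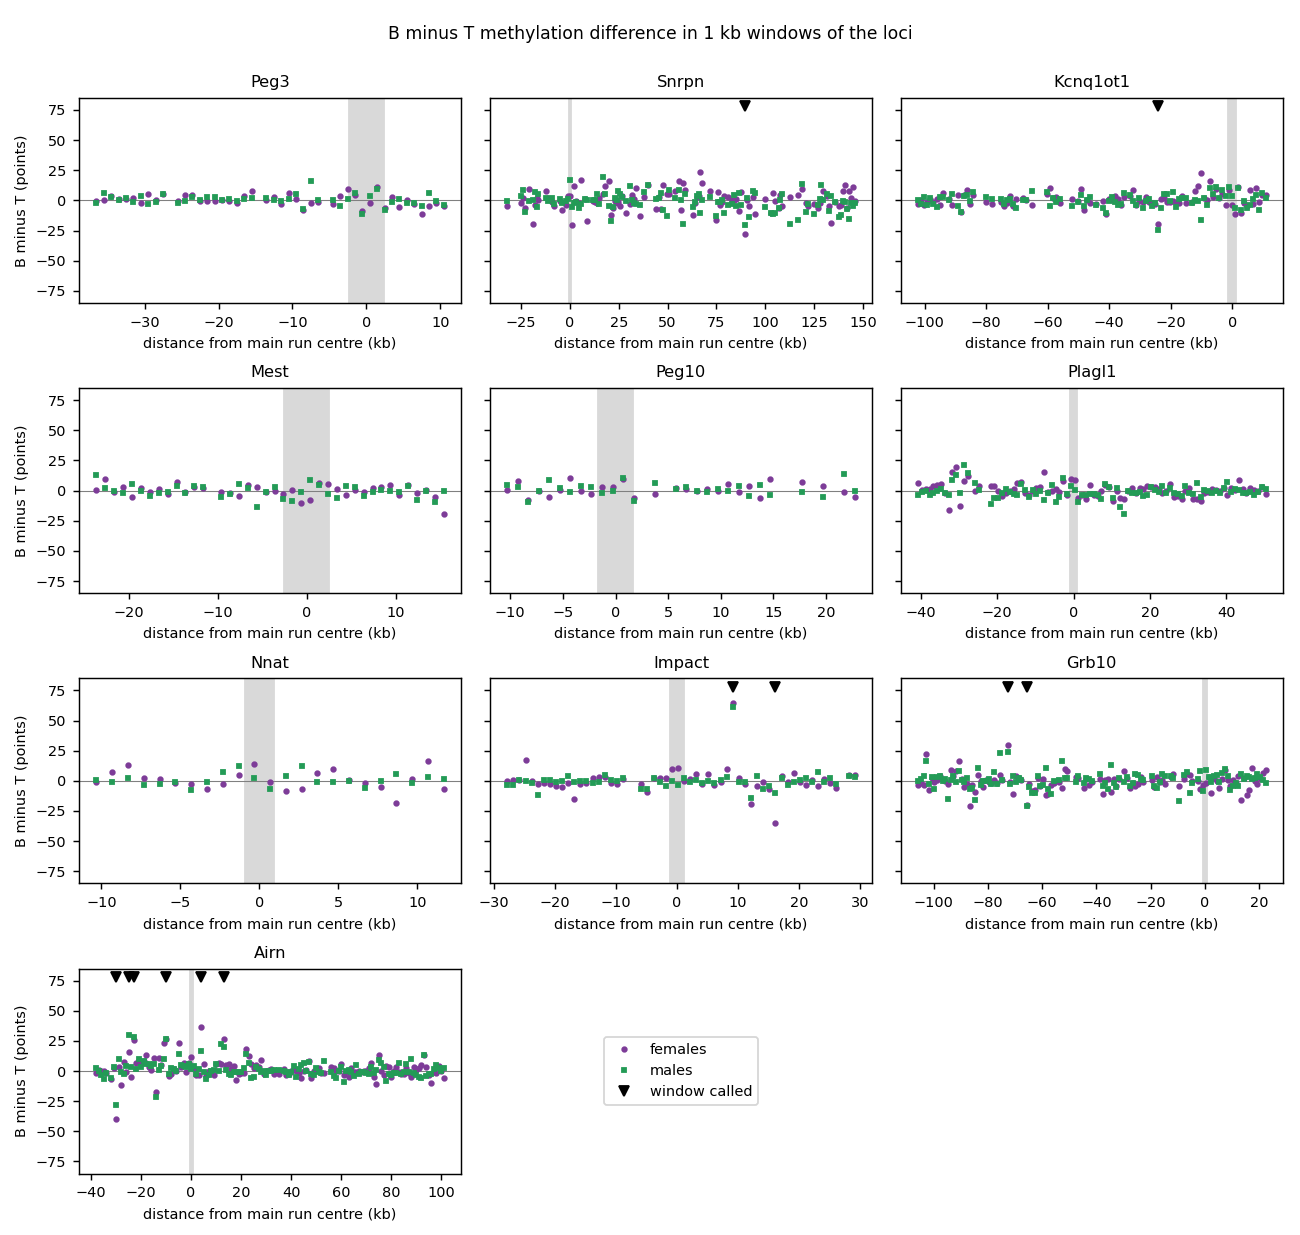
Difference in methylation level between B and T files (B minus T, percentage points) in 1 kb windows against distance from the main run centre (kb), with females and males as separate points, the main run shaded and called windows marked by triangles. Single points of the windows that overlap a main run reach from -20.6 to 17.1 points, both at Snrpn. None of these windows is marked, which the choice of runs by level partly fixed. The Impact window lies at 64.3 and 61.1 points.

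The sequences shared by the main runs were described from the GRCm38 reference. They held a median of 5.43 CpGs per 100 bp, against 1.95 over all autosomal runs, and a median GC content of 56.1%, against 50.7%. The large runs of the genome, those with at least 41 CpGs in the band, were as dense as these, with a median of 5.48 CpGs per 100 bp. The hexamer TGCCGC, searched on both strands, occurred in 10 of 10 main runs, with 59 copies in these 10. It occurred in 70% of the 80 large runs and in 16.1% of all runs. A copy does not show that ZFP57 binds there.

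A copy covered 4.58% of the CpGs in the main runs, against 0.994% of CpGs in all runs, 2.01% in the 80 large runs and 0.774% over the autosomes. Mest had 13 copies, Snrpn 10, Peg3 8, Plagl1 6, Nnat 6, Impact 5 and Grb10 4. Kcnq1ot1 and Peg10 had 3 each and the run at the Igf2r start had 1. Snrpn was densest, with 20.4% of its CpGs in a copy, and at least as many copies occurred in 0.000649% of autosomal tiles of the same length. For Mest that share was 0.00147% and for Peg3 0.0112%, while it was 0.434% for Kcnq1ot1 and 0.766% for Peg10. The tiles were not matched for CpG density, which was 0.851 per 100 bp over the autosomes against a median of 5.43 in the main runs. At the Igf2r start, where 1 copy was found, 7.23% of tiles of that length held at least 1. The run at Airn's own start had 8 copies, 8.51% of its CpGs, and 0.0016% of tiles of its length held as many. The further runs of Plagl1 and Grb10 and the intronic run of Airn had 0 or 1 copy.

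**Figure D5:**
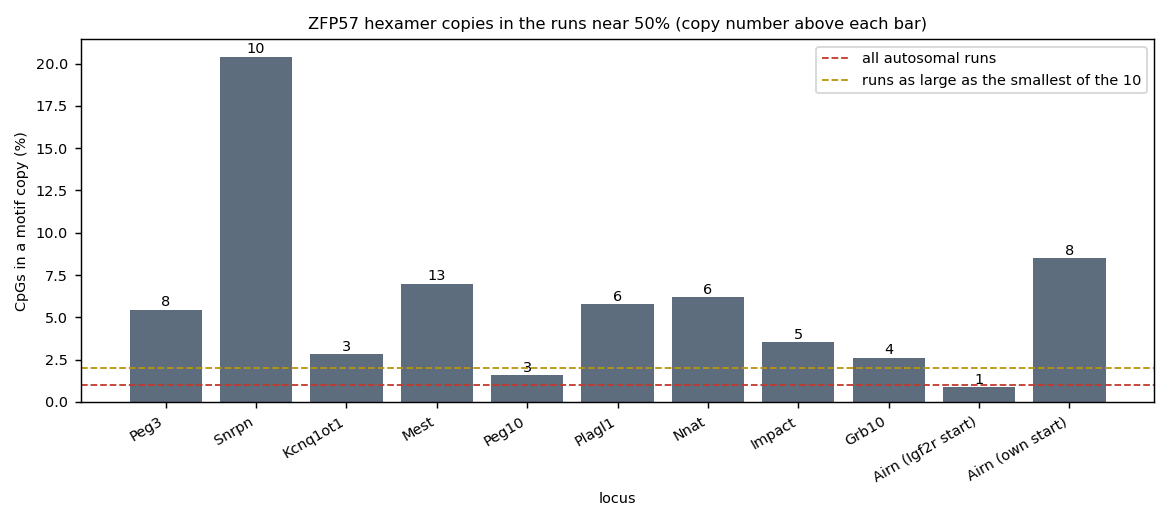
Share of reference CpGs (%) that lie in a copy of the ZFP57 hexamer in each run, with the number of copies above each bar and dashed lines at the share over all autosomal runs (0.994%) and over the runs with at least 41 CpGs in the band (2.01%). Snrpn reaches 20.4%, while the run at the Igf2r start lies below both lines.

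CpGs inside a copy were set beside the other CpGs of their run as a description, since both lay in runs located by level and some runs held 1 to 3 copies. At the 58 covered copies the level minus that of the other CpGs ranged from -5.71 points at Peg3 to 4.14 points at Mest over the main runs, with a median of -0.27 points, and it was below 0 at 5 of 10 loci.

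The same search was made at 9 other maternally methylated loci (Gnas, Nap1l5, Inpp5f, Mcts2, Zrsr1, Peg13, Slc38a4, H13, Cdh15) and at 4 paternally methylated loci (H19, Meg3, Rasgrf1, Zdbf2). A run was found at 10 of these 13 loci, and none at Mcts2, H13 and Rasgrf1. Of their main runs, 9 of 10 held the hexamer. It covered 3.55% of CpGs, with maternally and paternally methylated loci pooled, against 4.58% in the 10 loci described here. With the run at Airn's own start in place of that at the Igf2r start, the share in the 10 loci was 5.21%. The largest autosomal run by CpGs in the band was that of Gnas, with 230. Of the runs with 100 or more CpGs in the band, 4 lay in the 10 loci and 4 in these 13.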

How the data were processed

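Per the deposited files, each CpG carried a level given as a 3-decimal fraction and its coverage, a count of reads, which the authors had made with both strands merged and at least 5 reads kept. The submitters' processing notes name Trim Galore, FastQC, Bismark 0.13.1 and the build mm10. Duplicate removal and conversion rate are not given in the sources used here. In the 4 files 100% of positions, counted from 0, fell on a reference CpG of GRCm38, and 100% of fractions matched a whole methylated count to within 0.00101. Methylated reads were recovered as fraction times coverage, rounded. The members, lists and tests were chosen with earlier results of these data known, and the bridging of CpGs outside the band was chosen after seeing the runs.

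Reads of a run or window were summed, and a quasi-binomial logistic model (cell type, sex, 1 residual degree of freedom) was fitted to all of them. The dispersion was moderated with limma 3.58.1 in R 4.3.3, terms had F tests and p-values were adjusted by Benjamini-Hochberg over all runs or windows. Since each group had 1 file, p-values measure the spread between files only. Windows all received a dispersion of 1.29, so very small p overstate the certainty at a single window. The scripts were tested on simulated data. A further B cell marker is not reported here. All 10 members are named, as are their further runs and the 10 called windows ranked highest when each is scored by whichever sex differed less. Gene models were GENCODE M21 on GRCm38, read with python 3.11.15. Alternatives changed the coverage, smoothing, band, gap, window, threshold, test and files used.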

Additional observations from a re-analysis of the deposited data

Results flagged for a closer look

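At 5 main runs the difference between B and T files had opposite signs in females and males. The share of all runs with opposite signs is not given, so this count has no background beside it. In points, females first, it was -2.19 and 8.30 at Snrpn (females minus males -10.5), -0.76 and 1.54 at Mest (-2.31), 9.29 and -0.76 at Nnat (10.1), 7.88 and -1.20 at Impact (9.08) and -1.82 and 1.91 at Grb10 (-3.73). With 1 file per sex and cell type, whether the sexes differ was not tested, and each value is a contrast of single files. No group had the 4 samples that a check for a sample far from the others needs.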

How the results depend on the processing

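All 10 loci held a run under every alternative. The median width, 2143 bp, was 1972 bp with smoothing over 5 CpGs, 1495 bp with a band of 35 to 65%, 2335 bp with a band of 25 to 75%, 2397.5 bp with a gap of 1000 bp and 2143 to 2291 bp when 1 file was left out of locating the run. With unbroken runs, an alternative added after seeing the data, it was 627.5 bp and the median level was 48.4%. When a file was left out, sex also left the fit, so the lone file of a cell type, assumed to vary like the others, was set against files of both sexes and cell type was mixed with sex. So compared, 1 main run was called without the male B file, Plagl1 at 11.8 points (adjusted p = 0.00016), and the count was 0 to 1. Others had an adjusted p under 0.05 with differences under 10 points: without the male T file Impact (7.01 points, 0.000139), the Igf2r start (9.04, 0.00082), Nnat (7.01, 0.0188) and Kcnq1ot1 (-5.41, 0.034), without the male B file the Igf2r start (8.85, 0.0109) and Peg10 (5.24, 0.0314), and without the female T file Plagl1 (7.95, 0.0276). It was 0 in the 11 other settings, although in 4 of them main runs had an adjusted p under 0.05 (0.0073 at the lowest, Plagl1 with smoothing over 11 CpGs) with differences under the 10 points required. The share of all runs in these settings, or with a file left out, is not given, so these counts have no background beside them. Between the sexes 0 were called in every setting.

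The sign of a difference at a main run turned in 13 of 150 cases, each uncalled before and after. At the run of the Airn locus it was -1.62 points with 10 reads per CpG, -7.66 with a band of 35 to 65%, -9.25 with unbroken runs and -2.57 at the run at Airn's own start. At Peg10 it was -4.76 with unbroken runs, and at Grb10 it was -0.033 with a band of 35 to 65%. With 1 file and the sex term left out the values ran from -0.13 to 11.8 at Plagl1, -0.33 to 7.01 at Impact, -0.72 to 6.83 at Snrpn, -0.32 to 1.12 at Mest and -1.46 to 1.62 at Grb10. The turns with a file left out changed the files and the match of sexes, and could move the edges of the run. In the others the run was located anew or was another one. Such a turn may belong to another stretch or to a part of the main run. At the Airn locus -2.57 is the value of another run than the main one. The cause of the other turns was not tested.

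The 12 called windows of 731 (1.64%, against 2.08% of all windows) became 31 with a threshold of 10 points (4.24% against 4.22%), 7 by Fisher's exact test in both female and male pairs (0.958% against 1.75%) and 23 of 1008 in windows of 500 bp (2.28% against 2.75%). They were 9 with a dispersion prior from all windows (1.23% against 1.96%), 11 of 558 with 10 reads per CpG (1.97% against 2.61%) and 12 with sex left out (1.64% against 2.06%). With 1 file left out a cell type has 1 file, so counts are not given. Between the sexes 2 of 731 were called with a threshold of 10 points, against 245 of 1950708 autosomal windows. In windows of 500 bp 1 of 1008 was called, against 41 autosomal calls where 2665470 windows were laid over all chromosomes used. Of the 10 named windows 5 kept their call in each of the 8 or 9 settings in which they were tested, which leave out windows of 500 bp and, at Impact, 10 reads per CpG, and the others (2 of Airn, 1 each of Grb10, Snrpn and Kcnq1ot1) lost it in at least 1 setting, the Kcnq1ot1 window only without the male B file (-18.0 points) and the Grb10 window without the female T or the male B file (-18.9 and -18.3 points). Among these settings the threshold of 10 points could not lose a call, since it only lowered the limit. No paired analysis was possible because the groups share no replicate numbers. The depth was 14.6 to 17.7 reads per CpG.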
